A study of Mus musculus with 2 samples.

Results

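The small heat shock proteins and the chaperones of muscle myosin were followed as 10 genes chosen by symbol, out of 55536 genes in the tables. They were the small heat shock protein genes Cryab, Hspb1, Hspb2, Hspb3, Hspb6, Hspb7 and Hspb8, the co-chaperone gene Bag3, and the genes Unc45b and Smyd1, whose products act on myosin. All 10 symbols were found, and each named 1 gene. The RNA came from gastrocnemius, the large calf muscle, of 2 female mice aged 8 to 10 months, replicate 2 (labelled animal 3) and replicate 1 (labelled animal 1). Both were of the strain B6CASTF1/J, hybrids of the B6 and Cast strains, and no treatment is labelled. Total RNA, 300 ng per library, was made into strand-marked libraries after reduction of ribosomal RNA, and ERCC spike-ins, synthetic RNAs of known amount, had been added. There is 1 group and 1 library per animal, so the comparison is between animals, it carries no p-value, and its errors are SDs over n = 2. The labels give separate tissue samples and animal numbers under 1 shared donor identifier, so the spread is that between these samples.

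Small heat shock proteins share the alpha-crystallin domain, form oligomers, and hold unfolding proteins in a soluble state without using ATP. In striated muscle they bind Z-disc, desmin and titin structures that are strained at each contraction. Bag3 joins Hspb8 to the ATP-driven chaperone Hsp70 and passes damaged filamin to autophagy. Myosin heads need chaperones of their own to fold: Unc45b works with Hsp90 on them, and Smyd1, a lysine methyltransferase, is required for thick filament assembly in zebrafish and mouse muscle.

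Heat shock factors bind repeats of the letters GAA in alternating orientation. RefSeq promoter windows of 300 bases (GRCm38.p6, 250 before and 50 after each start) were matched by symbol for 8 of the 10 genes, with 9 windows in all since Hspb6 has 2. Cryab and Hspb2 had no entry. The facing pair GAANNTTC occurred in 5 of the 9 windows, those of Hspb1, Hspb3, Hspb8, Bag3 and 1 of Hspb6. Over all 32851 promoter windows 7.86% held it. The outward pair TTCNNGAA occurred in none of the 9, against 8.52% of all windows. Both patterns read the same on either strand. A match is a string of letters and no measurement of binding.

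The sequences before the start of 3 genes are shown because they hold the facing pair upstream and because these genes span the range of levels, Hspb6 near the top, Hspb1 in the middle and Hspb3 at the bottom. Hspb1 lies on the plus strand and the stretch is chr5:135887669-135887918. Hspb6 is on the plus strand, at chr7:30553051-30553267, which ends just before the GENCODE start of Hspb6-201, and Hspb3 is on the minus strand, at chr13:113663677-113663926. All are written 5′ to 3′ on the gene's strand, and capitals mark GAANNTTC and, in Hspb3, TATAAA.
Hspb1: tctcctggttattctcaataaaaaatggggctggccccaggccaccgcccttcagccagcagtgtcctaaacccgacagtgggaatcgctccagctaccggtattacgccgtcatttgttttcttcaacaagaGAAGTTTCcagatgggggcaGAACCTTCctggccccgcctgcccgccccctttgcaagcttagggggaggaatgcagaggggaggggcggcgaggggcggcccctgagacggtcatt
Hspb6: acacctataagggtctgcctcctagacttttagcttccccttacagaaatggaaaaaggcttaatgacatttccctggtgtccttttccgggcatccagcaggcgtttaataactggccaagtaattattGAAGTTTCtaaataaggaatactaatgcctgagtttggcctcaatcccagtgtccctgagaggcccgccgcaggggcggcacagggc
Hspb3: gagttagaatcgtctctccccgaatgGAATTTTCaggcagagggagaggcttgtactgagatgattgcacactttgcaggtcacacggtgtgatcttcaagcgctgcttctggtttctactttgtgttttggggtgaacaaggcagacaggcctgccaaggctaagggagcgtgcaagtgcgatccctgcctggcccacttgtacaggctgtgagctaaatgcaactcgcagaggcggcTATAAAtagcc
Hspb1 held 2 facing pairs, at 117 and 97 bases before its start. In Hspb6 the pair began 120 bases and in Hspb3 224 bases before the RefSeq start, whereas in Hspb8 and Bag3 it lay after the start. TATAAA, searched on both strands, was found in 13.6% of all windows and in those of Hspb6, Hspb3 and Smyd1, at 29, 11 and 28 bases before the RefSeq start. The match of Smyd1 was inverted and reads TTTATA on the gene's strand. That of Hspb6 lies after the GENCODE start of Hspb6-201 and so outside the stretch shown. In Hspb3 it overlapped the only match to the site of MEF2, a muscle transcription factor, which 3.19% of windows held. The E box CANNTG, bound by MyoD and its relatives, was in 5 of the 9 windows (Hspb1, Hspb3, Hspb7, Hspb8 and Unc45b) and in 72.3% of all. No window of these genes matched the SRF site, which 1.63% of all held.

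The muscle held transcripts of all 10 genes above the typical level of a detected gene. Levels are in TPM, a share of all transcripts after division by length, so genes can be compared. The 10 genes summed to 1734 TPM in replicate 2 and 1932 TPM in replicate 1 (1833 ± 140, SD, n = 2). Their median was 98.4 TPM in replicate 2 and 112 TPM in replicate 1, while the 9673 nuclear protein-coding genes with at least 1 TPM in both animals had medians of 7.66 and 8.67 TPM. Each of the 10 was lower in TPM in replicate 2, as were nuclear protein-coding genes together, at 43.3% of TPM against 48.2% in replicate 1. TPM is a share of a fixed total, of which the short RNAs Rn7s1 and Rn7s2 took 33.6% in replicate 2 and 27.0% in replicate 1. As a share of nuclear protein-coding TPM alone, the 10 genes held 0.401% in each animal. On that scale 6 were higher and 4 lower in replicate 2. The shares of all genes lower in TPM, or higher after rescaling, were not counted. The libraries held 43421652 expected counts in replicate 2 and 42714567 in replicate 1, and the 10 genes took 0.172% and 0.167% of them.

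**Figure D1:**
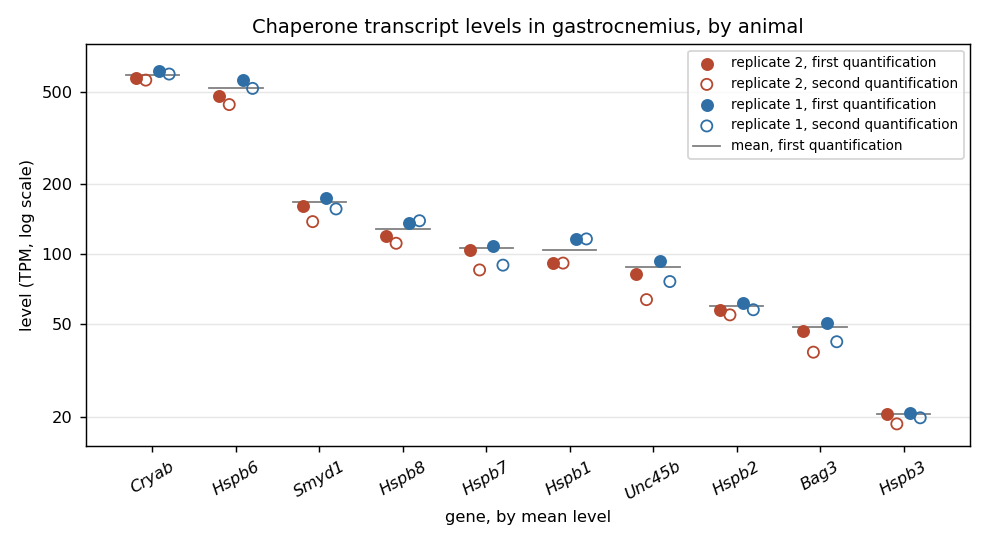
Level of each gene in TPM (log axis), filled points for the first and open points for the second quantification, replicate 2 left of replicate 1 and a line at the mean of the first. Cryab and Hspb6 stand at 439 TPM or more in every measurement, and Hspb3 lies lowest, between 18.7 and 20.7 TPM.

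Among the small heat shock proteins, 2 genes held most of the transcripts. Cryab (ENSMUSG00000032060.10, mm10 chromosome 9, 50751325 to 50756636, plus strand) encodes alpha-B crystallin, a desmin and titin chaperone. It had 570.5 TPM in replicate 2 and 610.4 TPM in replicate 1, from 10963 and 10209 expected counts. With a mean of 590.4 ± 28.2 TPM it ranked 61 among 22015 nuclear protein-coding genes, between Pgm1 (591.9) and Eef2 (586.7). Hspb6 (ENSMUSG00000036854.14, chromosome 7, 30552178 to 30555443, plus strand) encodes Hsp20, known for its phosphorylation in smooth and cardiac muscle. Its level was 478 TPM in replicate 2 and 559 TPM in replicate 1, from 16176 and 15973 counts. The lower Cryab value lay above the higher Hspb6 value, so the pair did not overlap. These gene totals include transcripts annotated as non-coding, and the order does not hold for the main coding transcripts. Cryab-205, 88.6% and 86.9% of coding Cryab TPM, had 223 TPM in replicate 2 and 227 TPM in replicate 1. The coding Hspb6-201 had 377 and 421 TPM. Of the summed TPM of the 7 small heat shock protein genes, Cryab made up 39.5% in replicate 2 and 37.8% in replicate 1, and Hspb6 33.1% and 34.7%.

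Hspb8, Hspb7 and Hspb1 followed at intermediate levels. Hspb8 (ENSMUSG00000041548.4, chromosome 5, 116408491 to 116422864, minus strand), the small heat shock protein that Bag3 carries, had 119.8 TPM in replicate 2 and 136 TPM in replicate 1. Hspb7 (ENSMUSG00000006221.7, chromosome 4, 141420779 to 141425311, plus strand), which binds filamin C, had 105 and 108 TPM. Hspb1 (ENSMUSG00000004951.10, chromosome 5, 135887919 to 135889563, plus strand), known in mouse as Hsp25 and as a partner of actin filaments, had 92.1 TPM in replicate 2 and 117 TPM in replicate 1. Hspb8 stood above Hspb7 in both animals. The values of Hspb7 and Hspb1 overlapped: Hspb7 was the higher in replicate 2 and Hspb1 in replicate 1. Of these 3 genes Hspb1 spread most, with a mean of 104 ± 17.3 TPM against 106 ± 2.33 for Hspb7. These SDs include the shift in composition between the libraries. Rescaled over nuclear protein-coding genes, Hspb1 had 213 in replicate 2 and 242 in replicate 1, and Hspb7 had 242 and 224. Hspb8 had 277 and 282 on that scale.

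Hspb2 and Hspb3, whose proteins form a complex with each other in muscle, were the lowest of the 7. Hspb2 (ENSMUSG00000038086.4, chromosome 9, 50751078 to 50752354, minus strand) had 57.8 TPM in replicate 2 and 61.6 TPM in replicate 1. Hspb3 (ENSMUSG00000051456.4, chromosome 13, 113662896 to 113663676, minus strand, 1 exon) had 20.6 and 20.7 TPM from 452 and 396 counts. The levels of these partners were thus apart by more than the spread between animals. Hspb2 and Cryab lie head to head, and their gene bodies overlap by 1030 bases on opposite strands. Cryab exceeded Hspb2 9.87-fold in TPM in replicate 2 and 9.91-fold in replicate 1. The exons of Hspb2-201 share 252 bases with those of Cryab-206, a transcript listed at 0.10% of Cryab TPM in replicate 2 and at 0% in replicate 1, and 0 bases with Cryab-204 or Cryab-205, which carried most of it.

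Beyond these 7, the family was nearly silent in this muscle. Cryaa, the lens alpha-A crystallin, and the testis genes Hspb9 and Odf1 had 0 counts in both animals. A count of 0 still allows 3 counts, which is 0.0691 CPM in replicate 2 and 0.0702 CPM in replicate 1, for counting error only. Hspb11, an intraflagellar transport gene named with the family, had 3.23 TPM in replicate 2 and 5.26 TPM in replicate 1.

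Bag3 and the myosin chaperones lay between these extremes. Bag3 (ENSMUSG00000030847.8, chromosome 7, 128523616 to 128546981, plus strand) had 46.95 TPM in replicate 2 and 50.65 TPM in replicate 1. For each Hspb8 transcript there were 0.392 of Bag3 in replicate 2 and 0.372 in replicate 1. Its protein partners were all detected, 7 of 7 at 1 TPM or more. Hspa8, the constitutive Hsp70, had 448 TPM in replicate 2 and 559 TPM in replicate 1, and Sqstm1, the autophagy receptor p62, had 204 and 233 TPM. Flnc, the filamin C client, had 166 and 180 TPM, and Synpo2, a Z-disc protein that binds Bag3, 108 and 102 TPM. Stub1, the ubiquitin ligase CHIP, stood lower, at 36.1 and 41.1 TPM, as did the Hsp40 co-chaperones Dnajb6 (32.9 and 35.5 TPM) and Dnajb4 (19.6 and 24.7 TPM). Bag3 was not the highest of its own family, since Bag1 had 94.6 and 103.7 TPM and Bag6 had 85.1 and 99.8 TPM, while Bag2, Bag4 and Bag5 stayed below 10 TPM in both animals.

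Unc45b (ENSMUSG00000018845.14, chromosome 11, 82910550 to 82943403, plus strand) had 81.9 TPM in replicate 2 and 93.9 TPM in replicate 1, from 8843 and 8980 counts. Its widely expressed paralog Unc45a had 6.14 and 5.19 TPM, so the muscle form exceeded it 13.3-fold in replicate 2 and 18.1-fold in replicate 1. Unc45a had 351 and 319 counts over effective lengths of 1776 and 2190 bases, so the gap between these folds rests partly on length. Unc45b stood below Hspb1 within each animal, though their ranges overlapped, and above Hspb2 in both. Set against its client, there were 6.15 Unc45b transcripts per 1000 myosin heavy chain transcripts (Myh1, Myh2, Myh4 and Myh7 summed) in replicate 2 and 6.30 in replicate 1. Of the Hsp90 genes with which it works, Hsp90ab1 had 506 TPM in replicate 2 and 584 TPM in replicate 1. The inducible Hsp90aa1 had 12.6 and 28.4 TPM. Its counts were 1114 and 1606 over effective lengths of 2745 and 2015 bases, so its TPM differed more than its counts. The Hsp90 cofactors Ahsa1 (48.4 and 54.96 TPM) and Ptges3 (29.1 and 31.3 TPM) stood below Unc45b in both animals.

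Smyd1 (ENSMUSG00000055027.17, chromosome 6, 71213940 to 71322233, minus strand) was the third of the 10 by level, with 162 TPM in replicate 2 and 174 TPM in replicate 1, from 15203 and 13786 counts. Smyd2, which methylates Hsp90 and is also a muscle gene, had 133 and 156 TPM, and Smyd3, Smyd4 and Smyd5 lay between 1.67 and 3.47 TPM. Smyd1 protein binds skNAC, the muscle form of Naca encoded by the long transcript Naca-202. Naca had 151 TPM in replicate 2 and 174 TPM in replicate 1, of which Naca-202 made up 40.7% and 42.4%. Because that transcript is 6745 bases long, it carried 85.3% of the Naca reads in replicate 2 and 86.2% in replicate 1.

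By mean TPM the order was Cryab, Hspb6, Smyd1, Hspb8, Hspb7, Hspb1, Unc45b, Hspb2, Bag3 and Hspb3. Among nuclear protein-coding genes Hspb6 ranked 77, Smyd1 323, Hspb8 409, Hspb7 488, Hspb1 499, Unc45b 591, Hspb2 891, Bag3 1103 and Hspb3 2422. The SD of TPM was between 0.274% of the mean (Hspb3) and 16.6% (Hspb1). It also carries the shift in composition, so a small SD of TPM does not mark a steady gene. Rescaled over nuclear protein-coding genes, Hspb3 had 47.7 in replicate 2 and 43.0 in replicate 1. Neighbours in the order by mean TPM did not overlap between animals, except for Hspb7 with Hspb1 and Hspb1 with Unc45b. By the second quantification, which the authors made directly from reads, Hspb1 (104 TPM) stood above Hspb7 (87.7 TPM) and the rest of the order was the same. That quantification gave Unc45b 63.8 TPM in replicate 2 and 76.3 TPM in replicate 1, 0.780 and 0.813 of the first values, the lowest such ratio of the 10 in either animal. For Hspb1 the ratios were 0.995 and 0.998.

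The animals differed little in these genes once composition was allowed for. The measure was the log2 ratio of replicate 2 to replicate 1 in CPM (counts scaled to library size) after TMM, which scales libraries so that most genes are level. None of the 10 differed 2-fold, against 1.39% of the 11125 genes whose expected counts averaged 50 or more. Nor did any reach 1.5-fold, which 5.56% of those genes did, nor a log2 ratio of 0.32 in either direction, which 17.6% of them passed. With a background share that small for 2-fold and a list of 10, a count of 0 is near what all genes show. In 6 of the 10 the ratio was above 0, as it was for 49.4% of all compared genes. The median of the 10 was 0.06 and that of all genes -0.002, and the median distance from 0 was 0.07 for the 10 and 0.12 for all genes. Counting error is larger for genes with few counts. The 10 held from 396 counts (Hspb3) to 16176 (Hspb6), while the compared genes begin at a mean of 50. No set matched for counts was drawn, so the part of depth in this difference was not tested.

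Hspb3 (0.17), Hspb7 (0.13), Smyd1 (0.12) and Cryab (0.08) had the highest ratios. Bag3 was at 0.06, Hspb2 at 0.05, Hspb6 at -0.004, Hspb8 at -0.01 and Unc45b at -0.04. Hspb1 was lowest, with 2379 counts in replicate 2 and 2627 in replicate 1 and a log2 ratio of -0.17, a fold of 0.892. Among all compared genes 39.5% lay at least as far from 0 as Hspb1 and 39.1% as far as Hspb3. An exact binomial interval of the counts at 95%, which covers counting error only, excluded 0 for 5 of the 10. For Hspb7 it ran from 0.09 to 0.17, for Smyd1 from 0.09 to 0.15 and for Cryab from 0.04 to 0.12, whereas for Hspb1 it ran from -0.25 to -0.09. That of Unc45b ended just below 0, and that of Hspb3, with the fewest counts, ran from -0.03 to 0.37. The share of all compared genes whose interval excluded 0 was not counted, so the 5 cannot be set against it. Over all 11125 compared genes chi-square per degree of freedom was 29.2, so the libraries differed by more than counting error. Scaling to the ERCC spike-ins lowered every ratio by nearly the same amount, to a median of -0.06 for the 10 and of -0.12 for all genes. Then 2 were higher and 8 lower in replicate 2, with Cryab at -0.04 and Smyd1 at -0.003, so the sign of 4 of these small ratios depends on the scaling. The share of all compared genes below 0 with spike-in scaling was not counted, though their median was below 0 too.

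**Figure D2:**
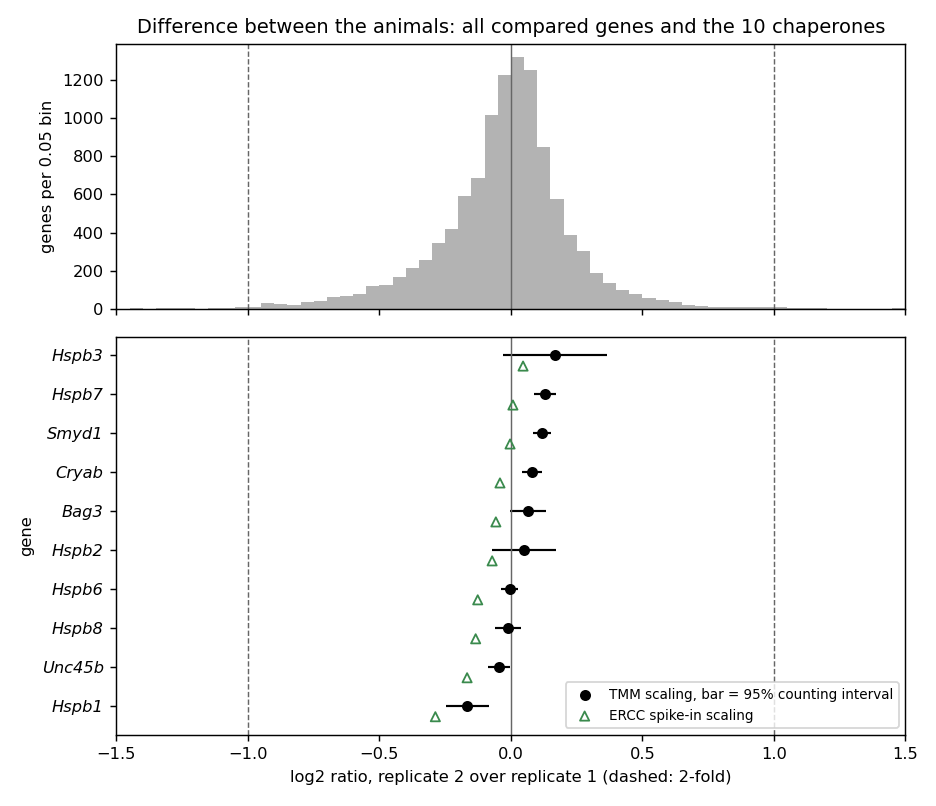
Above, log2 ratios of replicate 2 over replicate 1 for 11125 genes in bins of 0.05 (61 genes lie beyond the axis); below, the 10 chaperone genes with TMM scaling and 95% counting intervals, and with spike-in scaling as triangles. All 10 sit between -0.17 and 0.17 with TMM, far inside the dashed 2-fold lines.

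Several relatives and partners differed more than the 10 did. Hsp90aa1 had 1114 counts in replicate 2 and 1606 in replicate 1, a log2 ratio of -0.55, while Hsp90ab1 was at -0.01. Bag5 was at -0.44, Hspb11 at -0.37 on 56 and 72 counts, and Hspa8 at -0.22 on 25666 and 29445 counts. On the other side Hsf2 was at 0.32 (761 and 599 counts) and Synpo2 at 0.26. The counting interval of Hspb11 ran from -0.92 to 0.14 and so included 0. Among all compared genes 6.4% lay at least as far from 0 as Hsp90aa1, 14.0% as far as Hspb11 and 29.3% as far as Hspa8. Hsf1, the main activator of heat shock genes, was at -0.02, with 21.5 TPM in replicate 2 and 24.6 TPM in replicate 1, and Hsf4 was at 0.07 with 4.07 and 4.44 TPM. Hsf5 had 0 counts in both. Bag3 partners had 3 of 7 ratios above 0 (median -0.001), other BAG genes 1 of 5 (median -0.08), myosin folding partners 2 of 6 (median -0.01) and other SMYD genes 2 of 4 (median 0.04). None of these ratios reached 2-fold, whereas the TPM of Hsp90aa1 (12.6 and 28.4) differed by more than that. With spike-in scaling Hsf4 was at -0.05 and the median of the other SMYD genes at -0.08, both below 0, while Hsf2 (0.20) and Synpo2 (0.13) stayed above it.

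Among the clients, desmin (Des), the intermediate filament that Cryab protects, had 904 TPM in replicate 2 and 994 TPM in replicate 1 and a ratio of 0.04. Vimentin (Vim), its counterpart in non-muscle cells, had 26.5 and 38.8 TPM and a ratio of -0.34. The myosin heavy chain Myh4 of the fastest fibres was at -0.02, Myh1 at 0.24, Myh2 at 0.11 and the slow chain Myh7 at 0.19. Spike-in scaling put Des at -0.08 and Myh2 at -0.01, and left Myh1 (0.12) and Myh7 (0.07) above 0. The fast and slow clients of Unc45b did not share 1 ratio. Myh4, at 11440 TPM in replicate 2 and 13047 TPM in replicate 1, made up most of the myosin transcripts. Unc45b at -0.04 lay nearest to Myh4, but ratios this close to 0 are common. Among all compared genes 92.7% lay at least as far from 0 as Myh4 and 79.2% as far as Unc45b. A link between the levels of Unc45b and Myh4 was not tested.

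**Figure D3:**
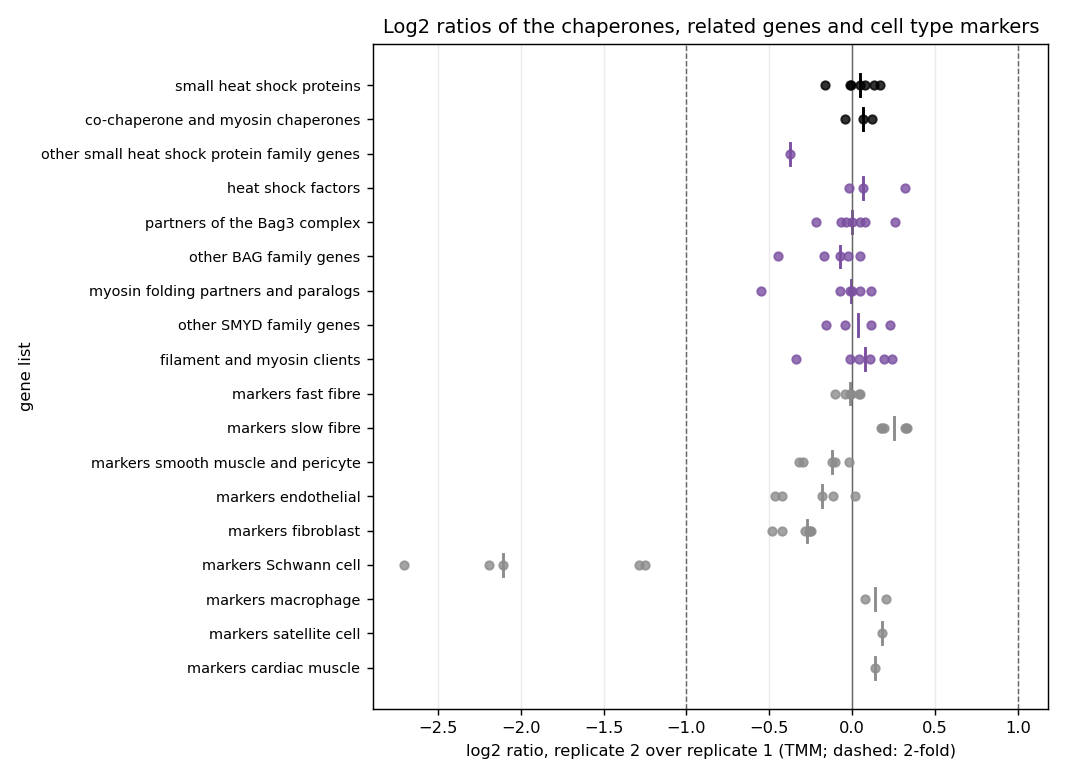
Log2 ratios of replicate 2 over replicate 1 (TMM), a point per gene and a bar at each list's median, for the 10 genes (black), related genes (purple) and cell type markers (grey). Schwann cell markers lie beyond 2-fold, and the 10 chaperone genes cluster near 0.

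Cell type markers moved beside these values, and their part in them was not tested. In bulk tissue fewer cells of a type and less RNA per cell cannot be told apart. Fast fibre markers, 6 of 6 detected, summed to 57071 TPM in replicate 2 and 63866 TPM in replicate 1 with a median ratio of -0.01, high levels for which the labelled muscle is known. Slow fibre markers summed to 1705 and 1631 TPM, and 6 of 6 ratios were above 0 (median 0.25, and 0.13 with spike-in scaling). Smooth muscle and pericyte markers, cells that also hold Hspb1 and Hspb6, summed to 86.3 TPM in replicate 2 and 111 TPM in replicate 1, with 5 of 5 compared ratios below 0 (median -0.12). Endothelial markers summed to 44.0 and 53.5 TPM (4 of 5 below 0) and fibroblast markers to 105 and 149 TPM (6 of 6 below 0). Schwann cell markers, 3 of 6 detected, summed to 12.6 TPM in replicate 2 and 56.1 TPM in replicate 1, with all 5 compared markers at least 2-fold lower in replicate 2. Macrophage markers (3.82 and 3.70 TPM) and satellite cell markers (1.10 and 1.19 TPM) were scarce. Of the cardiac markers Myh6, some of whose reads also fitted other genes, made up most of 56.25 and 58.6 TPM, and Nppa had 4 and 2 counts. No marker was at 0 counts in both animals.

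The annotation holds several transcripts for 7 of the genes, and the tables divide the reads of each gene among them. Hspb3, Hspb7 and Bag3 have 1 each. By the share of the gene's TPM, the same transcript led in both animals for 9 of the 10 genes, and for 10 by the second quantification. It was the same in both animals and both quantifications for 8, with Cryab and Smyd1 the exceptions.

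For Cryab the first quantification placed a non-coding transcript first. Cryab-204, of 585 bases and annotated as a retained intron, held 55.9% of Cryab TPM in replicate 2 and 57.25% in replicate 1. Cryab-205, a transcript of 836 bases that codes for the protein, held 39.0% and 37.2%. In reads they were close, with 4979 and 4756 counts for Cryab-204 and 5270.5 and 4685 for Cryab-205. The transcripts share 468 bases, and only 117 bases of intron belong to Cryab-204 alone. By the second quantification Cryab-205 led with 44.1% in replicate 2 and 47.0% in replicate 1, against 43.5% and 42.0% for Cryab-204. Which of them leads is therefore not settled by these tables, and it bears on the TPM of the gene, since its effective length was 597 and 596 bases.

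Hspb6 showed a like split with a clearer leader. Hspb6-201, which codes for the protein, held 78.8% of TPM in replicate 2 and 75.3% in replicate 1. Hspb6-204, a short non-coding transcript of 350 bases, held 20.9% and 24.3% of TPM but 4.96% and 5.97% of the reads. By the second quantification it held 32.7% and 33.1%. It begins within the first intron of Hspb6-201, and its first exon, at chr7:30553885-30553935 on the plus strand, is the stretch of 51 bases by which it can be told apart:
Hspb6-204 first exon: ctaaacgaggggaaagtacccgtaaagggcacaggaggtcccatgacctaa
Hspb6-202 and Hspb6-203, non-coding transcripts that begin upstream of Hspb6-201 at separate starts, held no more than 0.28% of TPM each by the first quantification. By the second, Hspb6-202 held 1.42% in replicate 2 and 2.88% in replicate 1, and Hspb6-203 held 0.170% and 0.313%.

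Smyd1 was the gene whose leading transcript changed between the animals. Smyd1-201 held 46.7% of Smyd1 TPM in replicate 2 and 42.2% in replicate 1. Smyd1-202 held 42.6% and 43.6%. The pair differs in coding sequence by 1 exon of 39 bases, exon 5 of Smyd1-201, at chr6:71235343-71235381 on the minus strand, where the coding length is 1470 bases with it and 1431 without:
Smyd1-201 exon 5: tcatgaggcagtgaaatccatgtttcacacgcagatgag
Of the transcripts that span this place, those with the exon held 52.3% of TPM in replicate 2 and 49.2% in replicate 1 (50.7 ± 2.21%, SD, n = 2). By the second quantification the share was 60.6% and 58.3%, and Smyd1-201 led in both animals. Striated muscle is known to hold Smyd1 forms with and without such a short exon. Smyd1-203 and Smyd1-205, which begin far upstream, were listed at 0 in both animals by both quantifications. A short transcript of the last exons, Smyd1-206, held 10.6% of TPM in replicate 2 and 14.05% in replicate 1, but 1.19% and 1.64% of the reads.

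**Figure D4:**
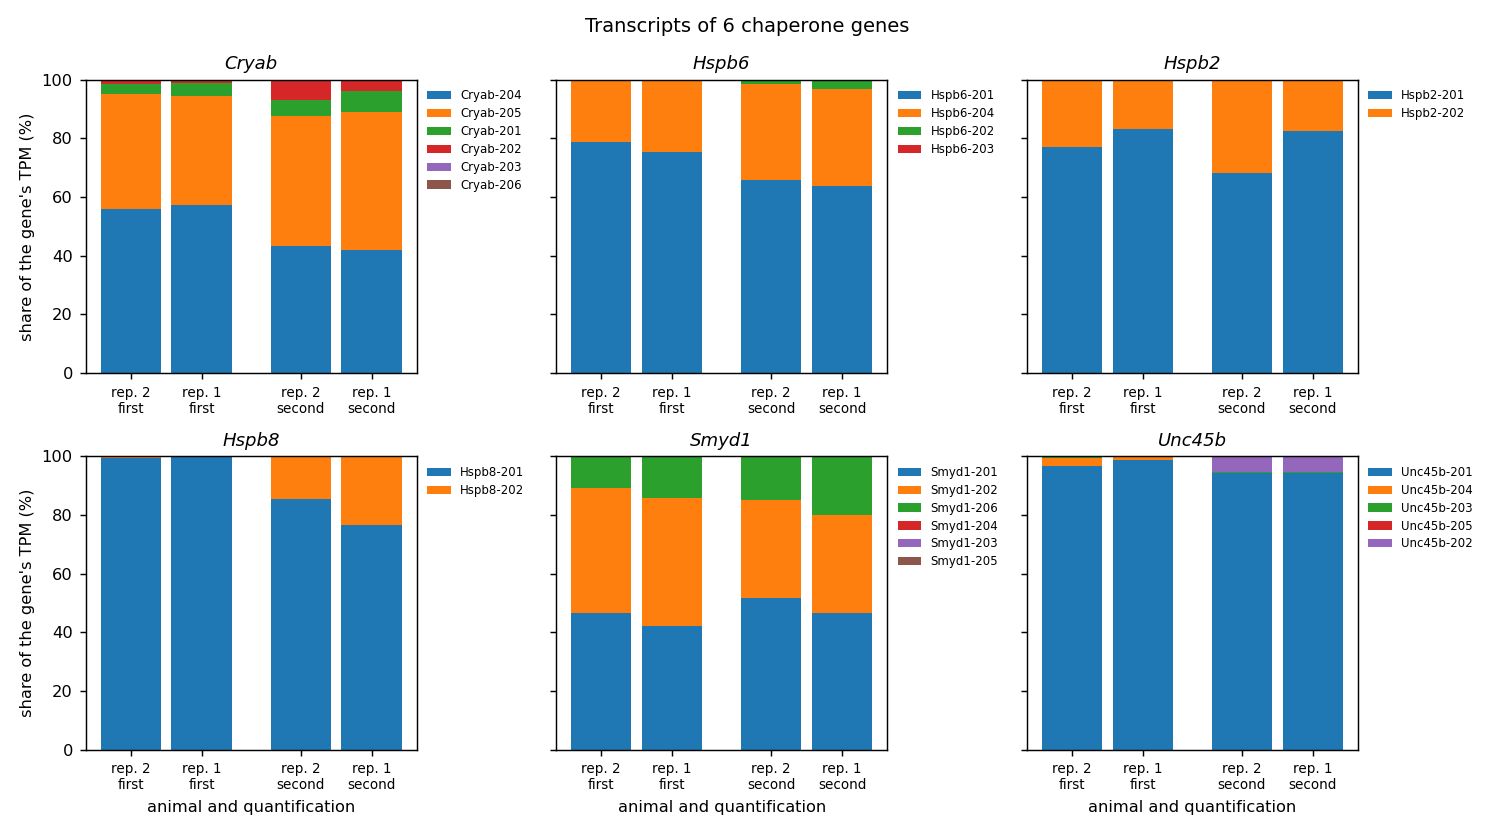
Share of each gene's TPM by transcript, in percent, for 6 genes, with replicate 2 left of replicate 1 by the first and then the second quantification. Cryab-204 leads Cryab by the first quantification only, and Smyd1-201 and Smyd1-202 trade places between the animals there.

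In Hspb2 the full-length transcript Hspb2-201 held 77.2% of TPM in replicate 2 and 83.3% in replicate 1. Hspb2-202, which lacks 282 coding bases of it, held 22.8% and 16.7%, on 192 and 131 counts. Hspb8-202, a non-coding transcript, held 0.46% and 0.34% by the first quantification but 14.7% and 23.5% by the second, which lowered Hspb8-201 to match. Unc45b-201 held 96.7% of TPM in replicate 2 and 98.6% in replicate 1. Unc45b-202, which starts upstream of it, was listed at 0 by the first quantification and at 5.40% and 5.22% by the second. Hspb1-201 made up 99.6% and 100% of Hspb1. Hspb1 was the only gene of the 10 whose count had a posterior SD above 0 in the deposited table, 0.951% of the count in replicate 2 and 0.985% in replicate 1, so some of its reads also fitted other genes.

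Neighbouring genes within 5 kb were low. Krcc1, on the strand opposite Smyd1, had 10.3 TPM in replicate 2 and 11.9 TPM in replicate 1, the highest neighbour apart from the pair Cryab and Hspb2. Nle1 upstream of Unc45b had 3.72 and 5.50 TPM, Lin37 at the end of Hspb6 4.30 and 4.19 TPM, and 2310030G06Rik beyond Hspb2 2.06 and 2.09 TPM. Proser3, which overlaps the 5′ end of Hspb6-203 on the other strand by 122 bases, had 72 and 97 counts. Unc45bos, which overlaps Unc45b by 8480 bases on the opposite strand, had 4 and 3 counts beside 8843 and 8980 of Unc45b. Cd8b1 near the distal Smyd1 start had 0 counts in both animals.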

How the data were processed

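Total RNA-seq of gastrocnemius was deposited for 2 libraries of 1 group, 1 per animal. The gene and transcript tables of the first quantification hold expected counts, TPM and the percent of each gene's TPM per transcript, as the authors deposited them, in the layout that RSEM writes; the second holds estimated counts and TPM made directly from reads, in the layout of kallisto. The assembly mm10 is given in the labels and GENCODE M21 in the deposited descriptions; the use of strand in counting, like the programs, is not given in the sources used here. TPM bounds (a signal never below 0) and posterior SDs deposited by the authors were used only to see whether reads were shared. All 55536 gene identifiers matched GENCODE M21.

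Expected counts were rounded for edgeR 4.0.16 (TMM, CPM with a prior count of 2), over genes with a mean of at least 50. Numeric identifiers (1 count in all) and spike-ins stayed out of library sizes. With 1 group there is no test, and differences are described by size; called means at least 2-fold. Only the log2 ratio step was tested on simulated counts, with changes larger than those of the 10 genes. Intervals came from SciPy 1.17.1. The genes and gene lists were chosen with earlier results of these data known. Genes named are all 10, the lists' members, neighbours within 5 kb and those next to Cryab by rank. Alternatives were scaling by DESeq2 1.42.0 or by spike-ins, a prior of 0.5, a minimum of 10, no filter, other folds, posterior mean TPM, rescaling over nuclear protein-coding genes, the second quantification and leaving out each animal. The allele of origin of reads was not analysed here.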

Additional observations from a re-analysis of the deposited data

How the results depend on the processing

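Rescaled over nuclear protein-coding genes, the summed TPM of the 10 genes was 4006, against 1833 TPM as deposited, and their median was 230.01 TPM against 105, since the total then left out the abundant short RNAs. Both stayed within 1 SD by the second quantification and by posterior mean TPM. Over the libraries taken singly the sum ran from 1734 to 1932 TPM and the median from 98.4 to 112 TPM. By the second quantification Cryab over Hspb2 averaged 10.2 against 9.89 and Bag3 over Hspb8 0.321 against 0.382, each more than 1 SD away; the cause was not tested. The ratios of Unc45b to Unc45a and to myosin stayed within 1 SD by the second quantification and by posterior mean TPM; rescaling cannot change a ratio within a library. Of the 9 neighbouring pairs in the order of levels, 8 kept their order by the second quantification and in replicate 1 alone, where Hspb1 stood above Hspb7. No gene of the 10 passed 2-fold, or either lower threshold tried (the lowest, 0.32 on the log2 scale, was passed by 17.6% of all compared genes), under TMM, nor 2-fold with any other scaling, filter or quantification. With spike-in scaling the number higher in replicate 2 was 2 against 6, because that scaling shifts all genes. The median of the 10 was then -0.0643 against 0.0573, and that of all compared genes -0.124. The share of all compared genes higher in replicate 2 was counted for TMM only. DESeq2 size factors, the smaller prior, both filters and the second quantification left the number of the 10 that were higher within 1.5 times. The filters moved Hspb6 across 0, within its counting interval. The second quantification moved the TPM of 6 genes by over 1 SD, all downward. The same transcript led in both animals for 10 genes by the second quantification, against 9, and for 9 by posterior means; this count needs both libraries. Depth limits Hspb3 most, and each animal has 1 library. No paired analysis was possible because the design holds 1 group.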
